A study of Homo sapiens with 3 samples.

Results

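The late-numbered miRNAs are the mature human miRNAs whose name carries the number 1000 or above. They were taken from the deposited table by that number and by their level: members were selected on a mean over the 3 libraries of at least 1 rpm, where rpm stands for reads per 1000000 sequenced in a library. That selection used the mean level alone, but a scarce miRNA can reach it through 1 high library: without their highest library 10 of those chosen fell under the limit, 5 of them high in RR, 4 in CC and 1 in Mock. Of these 10, miR-7973, miR-7108-5p and miR-4689 are counted below as differing by 2-fold or more, and for them a difference was built into the choice. This gave 89 of the 1149 listed miRNAs. Another 532 late-numbered miRNAs lay under the limit, and 301 miRNAs with lower numbers, called earlier-numbered here, lay above it. Just inside the limit were miR-4659a-3p, miR-1538 and miR-4443, with means of 1.04, 1.06 and 1.06 rpm, and just outside were miR-1273c, miR-3065-5p and miR-1226-5p, with 0.974, 0.973 and 0.973 rpm.

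Small RNA was sequenced from clones of CAL-27, an established line of human tongue squamous cell carcinoma. Untreated control clones (CC), clones labelled Mock, which by the design text received a single X-ray dose of 2 Gy, and radioresistant clones (RR), which received 2 Gy a day for 2 cycles of 5 days with 2 weeks of recovery after each cycle, all came from the same parental cells. Each label stands for 1 library, and the labels do not say whether it holds 1 single-cell clone or several. The treatment tags leave Mock and RR in doubt, since Mock is tagged as irradiated and the tag with the 2 Gy dose stands on RR alone, so CC, Mock and RR below mean the libraries so labelled. Without replicate libraries no test of a difference between groups can be made, and every interval covers counting error between libraries only, not the spread between clones or cultures.

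A miRNA is cut from a hairpin transcript, usually by Drosha with its partner DGCR8 and then by Dicer, and the strand loaded into an Argonaute protein recognises targets mainly through its seed, bases 2 to 8. Human miRNAs are numbered in order of registration. High numbers therefore came mostly from deep sequencing, and many of them are scarce, restricted to primates, or cut from unusual sources such as short introns, snoRNAs, repeats or the strand opposite another miRNA.

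RefSeq (GRCh38.p14) held 80 of the 89, each with the sequence listed in the deposited table. The first set shows the most abundant late-numbered miRNA, the most abundant one on a list of miRNAs with a mouse orthologue, and examples of those that differed by 2-fold or more in at least 1 comparison. Sequences run 5′ to 3′, and capitals mark the seed.
miR-1180-3p: uUUCCGGCucgcgugggugugu
miR-1307-3p: aCUCGGCGuggcgucggucgug
miR-1248: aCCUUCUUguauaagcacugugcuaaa
miR-4485-3p: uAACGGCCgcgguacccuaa
miR-3182: gCUUCUGUaguguaguc
miR-7973: uGUGACCCuagaauaauuac
miR-7108-5p: gUGUGGCCggcaggcgggugg
miR-4713-5p: uUCUCCCAcuaccaggcuccca
miR-1268b: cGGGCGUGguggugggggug
miR-1275: gUGGGGGAgaggcuguc

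The second set shows late-numbered miRNAs read from the strand opposite an abundant earlier-numbered miRNA, each followed by that miRNA. Each pair is complementary without a mismatch over 20 to 24 bases, so the seeds differ within a pair.
miR-3184-5p: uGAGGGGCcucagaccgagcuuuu
miR-423-3p: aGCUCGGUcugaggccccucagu
miR-3184-3p: aAAGUCUCgcucucugccccuca
miR-423-5p: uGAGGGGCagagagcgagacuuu
miR-3529-3p: aACAACAAaaucacuagucuucca
miR-7-5p: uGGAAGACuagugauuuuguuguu
miR-3074-5p: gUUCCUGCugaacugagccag
miR-24-3p: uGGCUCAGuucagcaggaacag

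Late-numbered miRNAs were a small part of the miRNA reads. They took 14085 reads in CC, with 12614 in Mock and 17061 in RR, which is 0.804% of the miRNA reads in CC (exact 95% Clopper-Pearson interval 0.791 to 0.818), 0.512% in Mock (0.503 to 0.521) and 0.794% in RR (0.782 to 0.806). The share was thus lowest in Mock, whose listed miRNAs took 23.2% of all reads, against 16.3% in CC and 20.5% in RR. Library totals recovered from the per-million scale were 10473400 to 10769990 reads, so that 3 reads, the limit that a count of 0 allows, correspond to 0.279 rpm in CC, with 0.282 in Mock and 0.286 in RR. The median late-numbered miRNA stood at 2.88 rpm for CC, 2.82 for Mock and 3.53 for RR, and the median earlier-numbered one at 15.2, 17.7 and 19.3 rpm.

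A few late-numbered miRNAs held most of these reads. The 5 with the highest mean took 49.7% of the late-numbered reads above the limit in CC, with 49.2% in Mock and 52.1% in RR, and the 23 whose mean reached 10 rpm took 85.3%, 82.6% and 85.0%. miR-1180-3p, from an intron of B9D1 (chr17:19344513-19344534, minus strand), led in all 3 libraries with 275 rpm in CC, with 216 in Mock and 346 in RR. Among all listed miRNAs it ranked 58 in CC, 72 in Mock and 59 in RR. Since ligation efficiency differs between sequences, an order of levels between miRNAs is an order of reads.

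miR-3184-5p followed at 119 rpm for CC, 94.7 for Mock and 169 for RR. miR-7974, from an intron of the zinc finger gene ZNF653, stood at 95, 127 and 120 rpm, in the order CC, Mock and RR, which holds for every set of 3 values here. miR-1307-3p lies in an exon of ATP5MD, which encodes a small subunit of the mitochondrial ATP synthase (chr10:103394301-103394322, minus strand), and stood at 91.6, 102 and 124 rpm. miR-7974 and miR-1307-3p changed places between libraries: miR-7974 stood higher in Mock, while in CC and RR they differed by less than their counting intervals. miR-1343-3p, from an intron of PDHX, a component of the pyruvate dehydrogenase complex, came next at 68.8, 43.7 and 89.1 rpm.

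**Figure D1:**
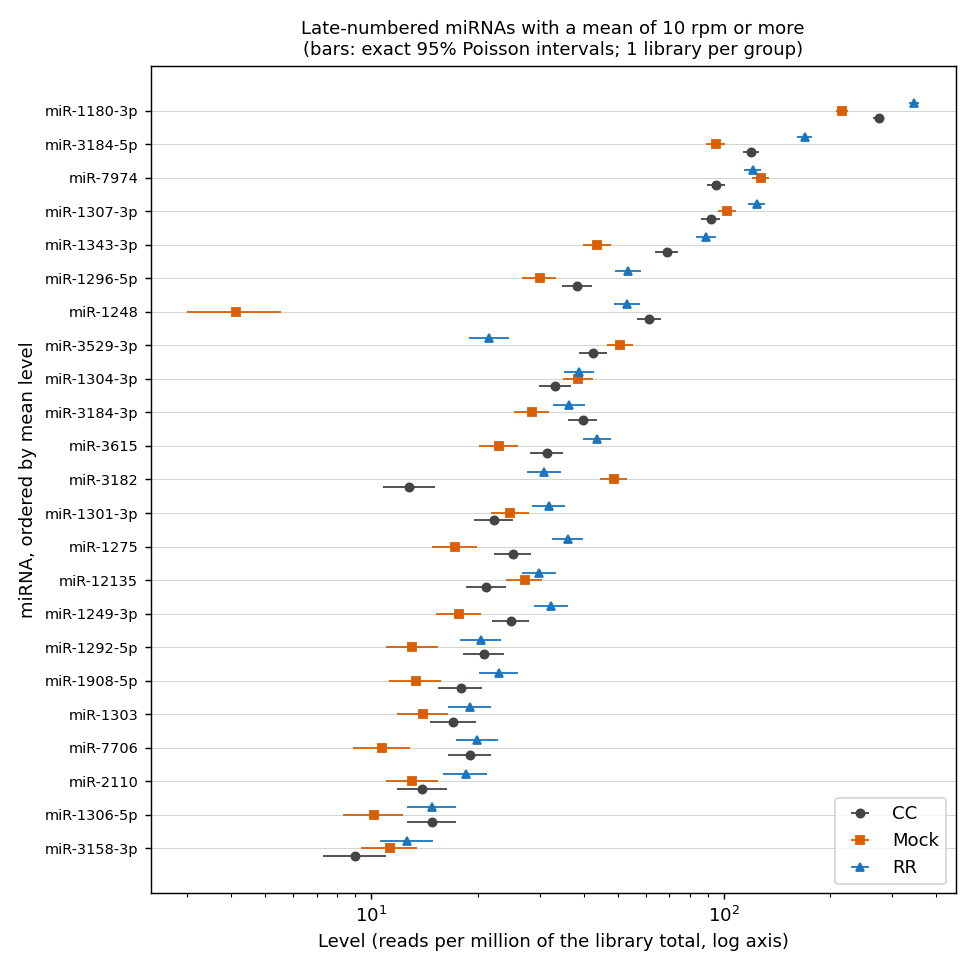
Level of the 23 late-numbered miRNAs whose mean reached 10 rpm, in rpm on a log axis, 1 point per library (CC, Mock, RR) with exact 95% Poisson intervals for counting error. miR-1180-3p lies at the top between 216 and 346 rpm, and miR-1248 is the one with the widest gap, 4.14 rpm in Mock against 61.3 in CC and 53.1 in RR.

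Among the other late-numbered miRNAs whose mean reached 10 rpm, miR-1248 left aside, the levels lay between 9.01 and 53.5 rpm in every library. miR-1306-5p, whose hairpin lies in an exon of DGCR8, stood at 14.9 rpm in CC, with 10.2 in Mock and 14.9 in RR. miR-1301-3p, from an intron of the DNA methyltransferase gene DNMT3A, stood at 22.3, 24.7 and 31.9 rpm, and miR-3615, from an exon of SLC9A3R1, at 31.5, 23 and 43.7 rpm. miR-1292-5p, in the NOP56 gene of a snoRNP core protein, stood at 20.8, 13.1 and 20.4 rpm. miR-1908-5p, in the fatty acid desaturase gene FADS1, stood at 17.9, 13.4 and 23 rpm. All of these but miR-1301-3p were lowest in Mock. miR-1296-5p, at 38.3, 30.0 and 53.5 rpm, miR-1249-3p, at 24.9, 17.7 and 32.4 rpm, and miR-7706, at 19.0, 10.7 and 19.96 rpm, had that order too. miR-12135, a sequence of 18 bases with 22.2% GC in an intron of NEO1, was instead lowest in CC, at 21.2, 27.2 and 29.9 rpm, and so was miR-3158-3p, at 9.01, 11.3 and 12.6 rpm.

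The sequences of the late-numbered miRNAs are described here beside those of the earlier-numbered, without a test. Their median GC content was 59.1% against 47.8%, and 39 of 89 (43.8%) had 60% GC or more, against 42 of 301 (14.0%). Lengths ran from 17 to 27 bases, and 67 (75.3%) had the 21 to 23 bases usual for a Dicer product, against 286 (95%) of the earlier-numbered. Under 20 bases were 8 of them, miR-3182 and miR-1275 with 17 bases among them, against 1 of the earlier-numbered. A first base of U, which Argonaute proteins favour, was found in 41 (46.1%) and in 123 (40.9%). The 89 had 89 different seeds. miR-3184-5p was the only one that shared its seed, GAGGGGC, with an earlier-numbered miRNA above the limit, miR-423-5p.

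Of the 71 late-numbered miRNAs with 1 locus in RefSeq, 29 lay in an intron and 22 in an exon of a protein-coding gene on the same strand, by GENCODE 29, where an exon may belong to a transcript with a retained intron. Another 6 lay in other genes, and 14 in no gene on their strand. The 22 in exons had a median log2 ratio of −0.40 in Mock over CC, the 29 in introns −0.16 and the 14 in no gene 0.26. These classes were not matched for GC content, whose trend in Mock over CC is given below. Place apart from GC content was not tested. Some host genes belong to the miRNA pathway: besides miR-1306-5p in DGCR8, miR-3173-5p, from an intron of DICER1, stood at 3.16 rpm for CC, 2.82 for Mock and 1.72 for RR. The list of mirtrons, short introns released by splicing without Drosha, had 1 of its 11 listed miRNAs above the limit, miR-1226-3p in DHX30, at 2.79, 1.88 and 4.01 rpm. The list of miRNAs with mouse orthologues had 4 of 12, of which miR-3074-5p passed 2-fold upwards in Mock over CC on the deposited scale only and miR-1307-3p, miR-1249-3p and miR-1306-5p stayed under 2-fold in every comparison.

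Against CC, the library labelled Mock showed 4 late-numbered miRNAs higher and 4 lower by 2-fold or more. This is 8 of 89 (8.99%), where 14.6% of all 390 miRNAs above the limit passed 2-fold (11.3% higher, 3.33% lower). The rule was applied to log2(rpm + 1), which understates the change of scarce miRNAs, while folds printed with an interval use the plain rpm. The higher ones were miR-7973, miR-3182, miR-1285-3p and miR-3074-5p, and the lower ones miR-1248, miR-4485-3p, miR-4713-5p and miR-10395-3p. For each of the 8 the counting interval of the ratio excluded 1. The median log2 ratio of the late-numbered miRNAs was −0.16, against 0.25 over all 390 and 0.37 over the earlier-numbered, and 51 of 89 lay below 0. The split depends on the scale: it was 2 higher and 5 lower with median-ratio scaling, and 2 higher and 10 lower when the level was taken as a share of the miRNA reads. These scales moved the median of all miRNAs from 0.25 to −0.00 and −0.19.

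miR-1248 showed the widest difference. Its sequence lies inside SNORA81, a snoRNA of the H/ACA class that guides pseudouridylation, within EIF4A2, the gene of a translation initiation helicase (chr3:186786675-186786701, plus strand). It had 660 reads (61.3 rpm) in CC, with 44 (4.14 rpm) in Mock and 556 (53.1 rpm) in RR. CC and RR lay close together and Mock far below. Mock was 14.8-fold lower than CC (exact 95% interval 10.9 to 20.6), RR was 12.8-fold higher than Mock (9.43 to 17.9), and RR stood at 0.866 of CC (0.772 to 0.971). Among late-numbered miRNAs it ranked 6 for CC, 39 for Mock and 7 for RR.

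miR-4485-3p, whose sequence occurs in MT-RNR2, the large mitochondrial ribosomal RNA, and in its nuclear copies MTRNR2L8 and MTRNR2L12, was likewise lowest in Mock. Its RefSeq locus is chr11:10508277-10508296, minus strand, and reads of these sources cannot be told apart. It had 31 reads (2.88 rpm) in CC, with 7 (0.658 rpm) in Mock and 60 (5.73 rpm) in RR. The counts were few, and Mock was 4.37-fold lower than CC (1.89 to 11.8), with RR 8.70-fold above Mock (3.97 to 22.6). RR was also above CC, 1.99-fold (1.27 to 3.18), a log2 ratio of 0.79 that stays under the 2-fold rule.

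These were the only 2 of the 5 listed miRNAs with a source inside another small or ribosomal RNA that lay above the limit, and their summed level was 64.2 rpm for CC, 4.80 for Mock and 58.8 for RR. A low value in Mock was not found for every sequence shared with such an RNA. miR-12136 also occurs in the mitochondrial transfer RNA MT-TS1, has a RefSeq locus at chr1:632668-632685 on the minus strand, and stood at 6.96 rpm in CC, with 9.97 in Mock and 8.31 in RR, highest in Mock.

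miR-3182, a sequence of 17 bases in an intron of CDH13, the gene of a cadherin without a cytoplasmic domain (chr16:83508349-83508365, plus strand), had the opposite order to miR-1248. It had 138 reads (12.8 rpm) for CC, 517 (48.6 rpm) for Mock and 324 (30.9 rpm) for RR. CC was the library that stood apart. Mock was 3.79-fold higher than CC (3.14 to 4.61), RR was 2.41-fold higher than CC (1.97 to 2.97), and RR stood at 0.636 of Mock (0.552 to 0.732). The log2 ratio of RR over CC was 1.21, 0.86 with median-ratio scaling and 0.89 with the share among miRNA reads, so that on those scales it no longer passed 2-fold.

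miR-7973 was read in Mock alone. Its 2 hairpins lie on opposite strands of the same stretch of chromosome 15 (chr15:51314034-51314053, plus strand, and chr15:51314088-51314107, minus strand), the latter in an intron of CYP19A1, the aromatase gene. It had 0 reads in CC, with 34 (3.20 rpm) in Mock and 0 in RR. Set against the floor of 3 reads per library, the 34 reads in Mock stood 11.5-fold above CC and 11.2-fold above RR. These folds leave out the counting error in Mock. With it, the exact interval of the ratio had a lower limit of 8.84-fold over CC and 8.60-fold over RR. miR-7973 passed the limit of 1 rpm only through Mock.

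miR-4713-5p, from an intron of MIR4713HG opposite CYP19A1 (chr15:51242200-51242221, plus strand), went the other way, with 5.57 rpm for CC, 2.16 for Mock and 5.35 for RR. Mock was 2.58-fold lower than CC (1.57 to 4.37). miR-10395-3p stood at 12.8 rpm in CC, with 5.74 in Mock and 8.78 in RR, and Mock was 2.23-fold lower than CC (1.64 to 3.07). RR lay beside CC for miR-4713-5p and between the other libraries for miR-10395-3p.

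miR-1285-3p, whose hairpins are derived from Alu repeats, stood at 2.41 rpm for CC, 6.87 for Mock and 3.15 for RR, with Mock 2.84-fold above CC (1.80 to 4.64). CC and RR differed by less than their counting error, since the ratio was 1.31 (0.757 to 2.27). With median-ratio scaling its log2 ratio of Mock over CC was 0.98, just under the rule.

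Mock also differed from the other libraries in some markers of other cell types. Of 6 blood miRNAs 5 were listed, which summed to 9.56 rpm in CC, with 409 in Mock and 12.3 in RR. Most of each sum was miR-486-5p, with 8.73, 398 and 11.5 rpm. Each of the 5 was highest in Mock, and miR-144-3p was at 0 in CC and RR and at 2.45 rpm in Mock. The 3 muscle miRNAs did not go together. miR-206, made in skeletal muscle, was highest in Mock, with 1.76, 25.5 and 3.63 rpm. miR-1-3p, with 338, 319 and 404 rpm, and miR-133a-3p, with 1.02, 0.658 and 0.859 rpm, were lowest in Mock. The 3 summed to 341, 345 and 408 rpm, most of it miR-1-3p. The 3 miRNAs listed here as squamous epithelial markers were present in every library, with sums of 37707, 28116 and 43874 rpm. miR-205-5p was lowest in Mock, at 25945, 14174 and 29651 rpm. miR-200c-3p, at 11739, 13918 and 14184 rpm, and miR-203a-3p, at 22.8, 23.7 and 39.2 rpm, were lowest in CC. The part of these markers in the late-numbered results that rest on Mock was not tested.

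Between RR and CC the fewest late-numbered miRNAs passed 2-fold. Higher in RR by 2-fold or more were 2 of 89, miR-3182 and miR-7108-5p, and 0 were lower, beside 1.79% of all miRNAs (1.28% higher, 0.513% lower). The median log2 ratio was 0.30, the same as over all 390 and over the earlier-numbered, and 68 of 89 lay above 0, as did 321 of 390. With median-ratio scaling, which moved the median of all miRNAs from 0.30 to −0.00, the count became 0 higher and 1 lower, and with the share among miRNA reads it was the same. The lower one was miR-3529-3p.

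miR-7108-5p, from an intron of the lamin gene LMNB2 (chr19:2434980-2435000, minus strand), was the only late-numbered miRNA with RR apart from both other libraries by 2-fold or more, where 0.513% of all miRNAs were. It passed the limit of 1 rpm only through RR, so that nothing is read from this difference or from its place in the counts. It had 7 reads (0.650 rpm) for CC, 2 (0.188 rpm) for Mock and 25 (2.39 rpm) for RR. RR was 3.67-fold above CC (1.54 to 10.1) and 12.7-fold above Mock, with an interval of 3.16 to 111 on 2 reads in Mock. Its log2 ratio of RR over CC, 1.04, was 0.85 with median-ratio scaling. CC stood apart for miR-3182 alone, beside 1.03% of all miRNAs. Mock stood apart for 4, miR-1248, miR-4485-3p and miR-4713-5p lower and miR-7973 higher, which is 4.49% beside 6.15% of all. Of these 4, miR-7973 passed the limit of 1 rpm only through Mock, and nothing is read from its place in the count.

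**Figure D2:**
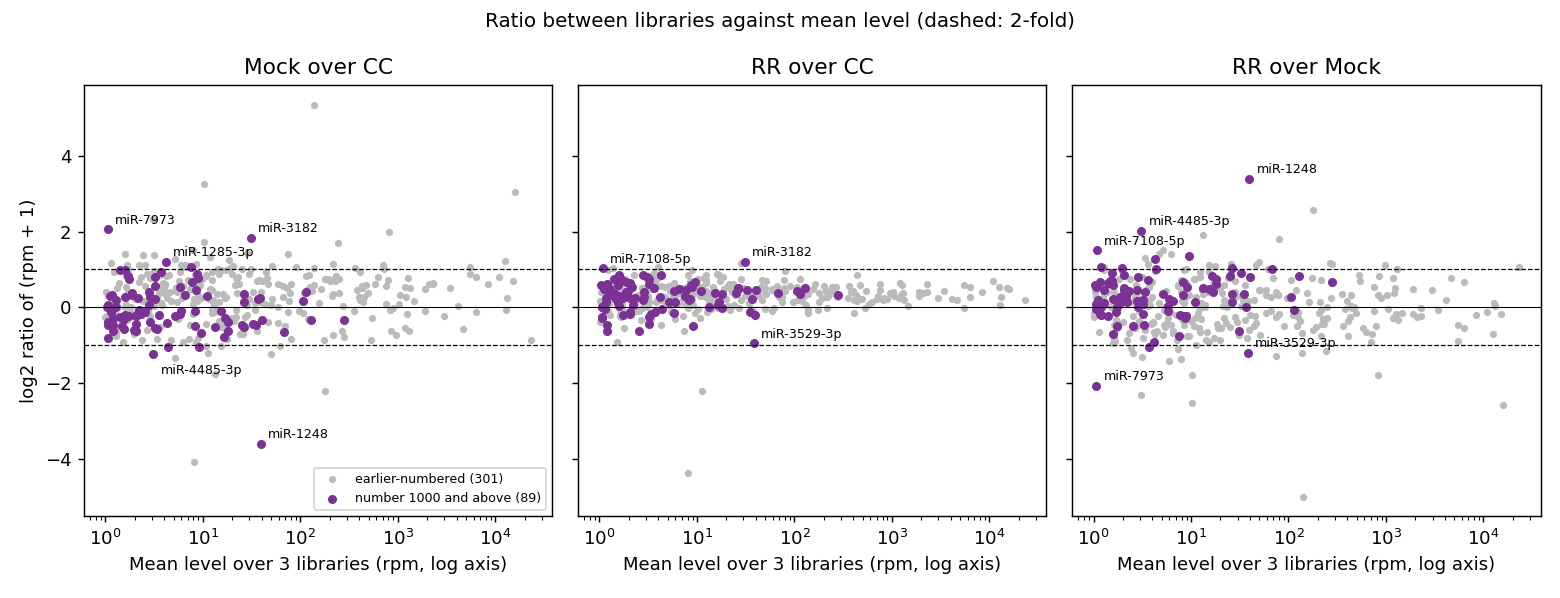
Log2 ratio of (rpm + 1) between libraries against the mean level in rpm (log axis), for the 89 late-numbered (purple) and 301 earlier-numbered (grey) miRNAs, with dashed lines at 2-fold. In RR over CC the purple points lie between −0.95 and 1.21 with a median of 0.30, while miR-1248 lies at −3.60 in Mock over CC and at 3.40 in RR over Mock.

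Against Mock, RR showed 10 late-numbered miRNAs higher and 3 lower by 2-fold or more. This is 13 of 89 (14.6%), beside 12.8% of all miRNAs (7.95% higher, 4.87% lower). The median log2 ratio was 0.30, against 0.07 over all 390 and −0.01 over the earlier-numbered, and 67 of 89 lay above 0, as did 216 of 390. This comparison shares the Mock library with that of Mock and CC, so that a low or high value in Mock enters both. The count was 6 higher and 3 lower with median-ratio scaling, and 13 higher and 2 lower with the share among miRNA reads.

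Besides miR-1248, miR-4485-3p and miR-7108-5p, the higher ones were miR-1268b, miR-6789-3p, miR-4689, miR-1275, miR-6511b-3p, miR-1343-3p and miR-4713-5p. miR-6789-3p, in PLEKHJ1, stood at 3.44 rpm in CC, with 2.35 in Mock and 7.07 in RR, 3.01-fold above Mock in RR (1.89 to 4.94). miR-1275, with 17 bases and in no annotated gene on its strand, stood at 25.3, 17.2 and 36.1 rpm, and RR was 2.10-fold above Mock (1.75 to 2.52). miR-1343-3p was 2.04-fold above Mock in RR (1.82 to 2.28). For these 3 Mock was the lowest library and RR the highest, with CC between them. miR-4689, which passed the limit only through RR, rested on few reads, at 1.02, 0.470 and 2.10 rpm, and its ratio of 4.47 had an interval of 1.65 to 15.1.

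Near-identical copies bear on 2 of the 10. miR-1268b, a GC-rich miRNA derived from Alu repeats, contains the 18 bases of miR-1268a without a mismatch. It had 94 reads in CC, with 54 in Mock and 153 in RR, while miR-1268a had 1, 24 and 0. The 2 names thus split the reads differently in Mock than in CC and RR. Alone, miR-1268b was 2.88-fold higher in RR than in Mock (2.10 to 4.0), and summed with miR-1268a the ratio was 1.99 (1.51 to 2.65). miR-6511b-3p differs from miR-6511a-3p by 1 mismatch over 22 bases, and its ratio of 3.15 (1.5 to 7.20) became 2.09 (1.12 to 4.07) for the sum. The assignment of reads that match both names is not stated in the sources used here.

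Of the 10 late-numbered miRNAs higher in RR than in Mock, 8 had 60% GC or more, beside 13 of the 21 earlier-numbered ones. The 8 include miR-7108-5p and miR-4689, which passed the limit of 1 rpm only through RR. Of the 39 late-numbered miRNAs with 60% GC or more, 37 lay above 0 in RR over Mock, with a median log2 ratio of 0.61. Of the 42 earlier-numbered ones 40 did, with a median of 0.74. The 23 with under 50% GC had a median of −0.17, against −0.28 for the 161 earlier-numbered ones. The order was turned in Mock over CC, where the GC-rich class had a median of −0.40 with 31 of 39 below 0 and the class under 50% GC a median of 0.25. The same classes of the earlier-numbered had medians of −0.45, with 32 of 42 below 0, and 0.59. In RR over CC the medians were 0.37 and 0.12, against 0.39 and 0.27 for the earlier-numbered.

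Spearman's rho between GC content and log2 ratio across the 89 was −0.40 in Mock over CC, 0.15 in RR over CC and 0.47 in RR over Mock. Across the 301 earlier-numbered it was −0.46, 0.14 and 0.54. These are descriptions across miRNAs of the same libraries, whose points share the library, its depth and its preparation. When a linear GC trend fitted over all miRNAs was removed, 3 of the 13 differences between RR and Mock remained past 2-fold, those of miR-1248, miR-4485-3p and miR-7973, and miR-4707-5p and miR-4791 passed it anew. Some of the others stayed near the limit, such as miR-1304-5p, whose log2 ratio went from −1.05 to −0.93. In Mock over CC 7 of the 8 remained, the exception being miR-4713-5p, and miR-4435 and miR-4707-5p passed anew. miR-7973, which remained in both comparisons, passed the limit of 1 rpm only through Mock, so that nothing is read from this. The cause of the GC trend was not tested.

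**Figure D3:**
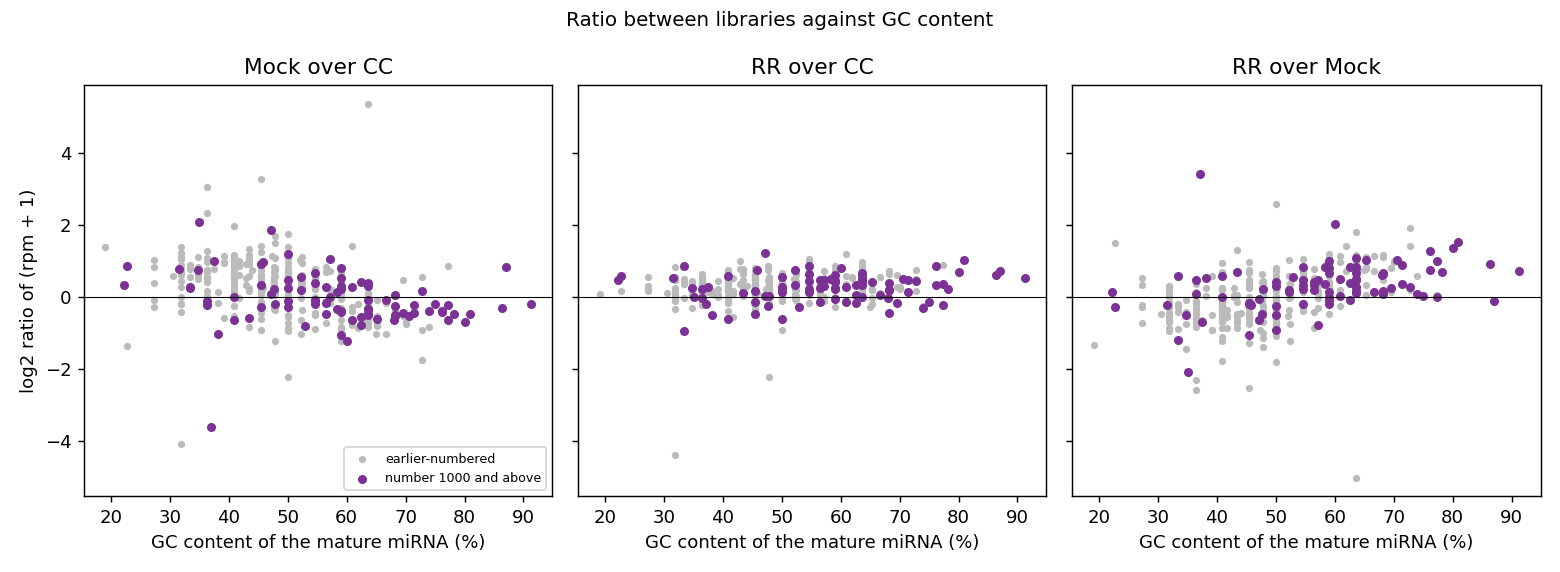
Log2 ratio of (rpm + 1) between libraries against the GC content of the mature miRNA in percent, for the late-numbered (purple) and earlier-numbered (grey) miRNAs. Purple points lie mostly to the right of 50% GC and follow the slope of the grey ones, downwards in Mock over CC (rho −0.40) and upwards in RR over Mock (rho 0.47).

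Late-numbered miRNAs opposite an abundant miRNA had levels far below their partner. miR-3184-5p (chr17:30117128-30117151, minus strand) lies opposite MIR423 in NSRP1. It stood at 119 rpm in CC, with 94.7 in Mock and 169 in RR, and miR-423-3p, complementary to it over 21 bases, at 4928, 3309 and 5626 rpm. This amounted to 2.42%, 2.86% and 3.01% of its partner, and both were lowest in Mock and highest in RR. miR-3184-3p stood at 39.7, 28.5 and 36.4 rpm, and miR-423-5p at 1189, 1045 and 1494 rpm, so that the share was 3.34%, 2.73% and 2.43%. Within the miR-3184 hairpin the 5p arm gave 75% of the reads of both arms in CC (72.9 to 77.0), 76.9% in Mock (74.5 to 79.1) and 82.3% in RR (80.6 to 83.9).

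miR-3529-3p (chr15:88611856-88611879, minus strand) lies opposite MIR7-2. Its partner miR-7-5p, which also comes from 2 other hairpins, stood at 4300 rpm for CC, 7892 for Mock and 4243 for RR. miR-3529-3p stood at 42.6, 50.8 and 21.6 rpm, in the same order of libraries but with a wider gap between CC and RR. RR was 1.98-fold lower than CC (1.68 to 2.33), while miR-7-5p had a ratio of 0.987 (0.974 to 1.00) between the same libraries. RR was 2.35-fold lower than Mock (2.01 to 2.76). The share of the partner was 0.991% in CC, with 0.644% in Mock and 0.509% in RR.

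miR-3074-5p (chr9:95086063-95086083, minus strand) lies opposite MIR24-1 and stood at 4.92 rpm for CC, 11.4 for Mock and 6.30 for RR. Mock was the highest library, 2.31-fold above CC (1.66 to 3.26). Its log2 ratio of 1.06 was 0.81 with median-ratio scaling and 0.62 with the share among miRNA reads, so that on those scales it no longer passed 2-fold. Its partner miR-24-3p, which also comes from the hairpin MIR24-2, stood at 906, 1541 and 1364 rpm and was 1.70-fold above CC in Mock (1.66 to 1.74). The share of the partner was 0.543%, 0.738% and 0.462%. Whether reads of these 4 late-numbered miRNAs come from transcripts of their own strand or from the abundant partner was not tested.

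**Figure D4:**
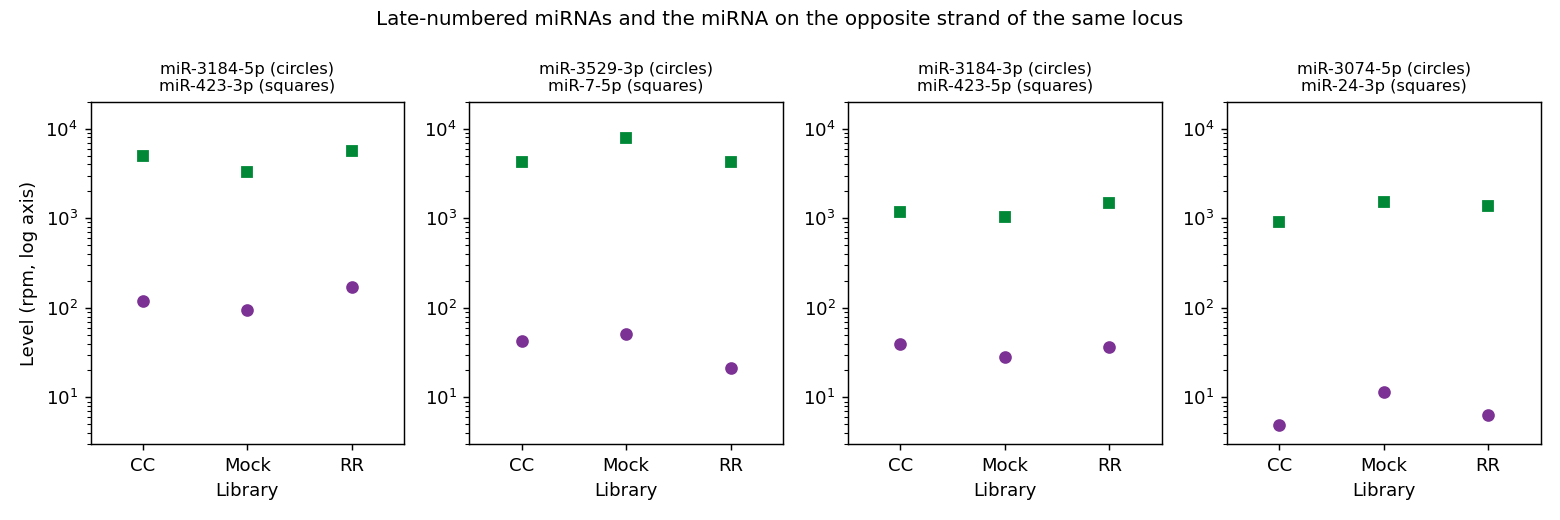
Level in rpm (log axis) of 4 late-numbered miRNAs (circles) and of the earlier-numbered miRNA on the opposite strand (squares) in CC, Mock and RR, 1 library each. The circles lie far below the squares in each panel, at 0.462% to 3.34% of them, and from CC to RR miR-3529-3p differs 1.98-fold, where miR-7-5p stands at 0.987 of CC.

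Both arms of a hairpin passed the limit for miR-3184, miR-1304, miR-1343 and miR-3127. For miR-1304, from TAF1D, the arms differed in their order. miR-1304-5p stood at 2.69 rpm in CC, with 6.02 in Mock and 2.39 in RR, and miR-1304-3p at 33.1, 38.7 and 38.8 rpm. The 5p arm was highest in Mock and the 3p arm lay nearly level, so that the share of the 5p arm was 7.51% in CC (5.09 to 10.6), 13.5% in Mock (10.5 to 16.9) and 5.80% in RR (3.79 to 8.44). RR was 2.52-fold lower than Mock for miR-1304-5p (1.57 to 4.18), which made it the last of the 3 that were lower. For miR-1343 the 5p arm gave 1.85% for CC, 1.90% for Mock and 2.71% for RR, with intervals that overlap. For miR-3127 it gave 19.3%, 33.3% and 34.8%, on 11, 14 and 16 reads of that arm.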

How the data were processed

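The authors deposited 1 table of 1149 mature human miRNAs with a column per library, named TPM in the files. The deposited values behave as RPM, reads per 1000000 of a library total that also counts other reads: dividing by 1 step per library gave whole numbers, with a tolerance of 0.01 read, for 100% of values. Bowtie and GRCh38 are named, with no role or version, per the submitters' processing notes. Per the labels' protocols, adapters were ligated to both ends of total RNA and libraries were sequenced on a NovaSeq. How reads were trimmed, which miRNA reference was used and how a read matching several miRNAs or either strand was counted is not stated in the labels or file headers. The labels name no molecular identifiers, so intervals and floors treat PCR copies as reads and cover counting error only.

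Columns were joined to libraries by the treatment tag, and groups follow the titles. With 1 library per group no count model was run. Ratios were taken as log2(rpm + 1) with a pseudocount of 1 rpm and a 2-fold rule. Levels have exact Poisson intervals and ratios have Clopper-Pearson limits at 95%, computed with scipy 1.17.1, pandas 2.3.3 and numpy 2.4.6 under Python 3.11.15, and figures were drawn with matplotlib 3.10.9. The ratio script was tested on simulated data. Alternatives changed the pseudocount, the minimum mean, the scale and a linear GC trend. Sequences and loci came from RefSeq GRCh38.p14, which matched 80 of 89 by name, and annotation from GENCODE 29.

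The members, the lists and the named miRNAs were chosen with earlier results of these data known. Named were members whose mean reached 10 rpm, the 6 largest ratios each way per comparison among those past 2-fold with an interval that excluded 1, second arms that are members, up to 4 members per list, and members that share a seed with another member, of which there were none. The lists cover sources inside other small or ribosomal RNAs, mirtrons, mouse orthologues, hairpins opposite another hairpin and Alu repeats. The last but one named 2 hairpins and had 1 member, miR-3074-5p. It was not complete, since the reverse complement of 8 members lies in a miRNA hairpin. Outside this rule, and chosen after their values were seen, are miR-12136, miR-3173-5p, miR-6511b-3p, both arms of miR-3127, miR-4707-5p, miR-4791 and miR-4435, the miRNAs at the edge of the limit, partners on the other strand and near-identical copies. Endothelial, mesenchymal, hepatic and neural markers summed to 53.9, 6.41, 4.46 and 170 rpm in CC, 65.8, 5.64, 5.45 and 303 rpm in Mock, and 80.5, 6.49, 2.96 and 224 rpm in RR.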

Additional observations from a re-analysis of the deposited data

How the results depend on the processing

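With a pseudocount of 0.1 rpm, 10 were higher and 7 lower in Mock over CC (4 and 4 as reported), 8 and 1 in RR over CC (2 and 0), 19 and 5 in RR over Mock (10 and 3), and Mock stood apart for 9 (4). With 10 rpm the counts were 1 and 1, 0 and 0, 1 and 0, and 1, and miR-1248 and miR-3182 were those left in Mock over CC and miR-1248 in RR over Mock. At a mean of 10 rpm or more, which leaves 23 miRNAs, they were 1 and 1, 1 and 0, 3 and 1, and 1. With median-ratio scaling, higher counts were 2 in Mock over CC, 0 in RR over CC, where 1 was lower, and 6 in RR over Mock. With the share among miRNA reads, Mock over CC had 2 higher and 10 lower, RR over CC 0 and 1, and Mock stood apart for 7. Without the linear GC trend, 1 was higher in RR over CC and 3 in RR over Mock. The median log2 ratio of Mock over CC, −0.16, was −0.045 with a pseudocount of 10, 0.00 with no filter on the mean, −0.34 at a mean of 10 or more, −0.37 with median-ratio scaling, −0.52 as a share, and 0.15 without the GC trend, where its sign turned. Ratios without the GC trend are set to a GC content of 50%, and the median over all miRNAs above the limit was then 0.25 in Mock over CC. The late-numbered median of RR over CC, 0.30, was 0.10 with a pseudocount of 10, 0.0035 with no filter, 0.013 with median-ratio scaling and 0.037 as a share. That of RR over Mock, 0.30, was 0.10 with a pseudocount of 10, 0.0035 with no filter, 0.51 at a mean of 10 or more, 0.45 as a share and 0.12 without the GC trend. The cause was not tested. Of 540 ratios of the 36 named miRNAs under the alternatives, 368 lay within the counting interval of the plain rpm ratio and 172 did not. Of those that had passed 2-fold, 0 changed sign. The 172 are not all changes. Some reported ratios, taken with the pseudocount, already lay outside that interval, such as miR-7973 in Mock over CC. In RR over CC miR-7973 has no interval and was counted among the 172. No paired analysis was possible because each group has 1 library, and for the same reason no library could be left out.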

Other observations

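The 532 late-numbered miRNAs under the limit of 1 rpm took 1014 reads in CC, with 954 in Mock and 1115 in RR, and 162 of them had a read in each library. A read was found for 329 of them in CC, for 326 in Mock and for 340 in RR.

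Among single miRNAs, miR-1291, on the list of sources inside another small or ribosomal RNA, had 18 reads in CC, with 0 in Mock and 7 in RR, lowest in Mock as miR-1248 and miR-4485-3p were. miR-3651, on the same list, had 10, 4 and 1 reads. miR-6789-5p, the other arm of the miR-6789 hairpin, with 87.5% GC, had 11, 1 and 14 reads, and miR-6789-3p was lowest in Mock as well. miR-4758-5p, with 73.9% GC, had 11, 1 and 13 reads, and miR-4685-3p had 9, 0 and 9. miR-6852-5p had 0, 2 and 10 reads. With 5 reads or more in 1 library and 0 in both others were miR-3176 in CC (6 reads), miR-4684-5p in Mock (5), and miR-10401-3p (5) and miR-6871-5p (6) in RR. These miRNAs were picked for their counts after the values were seen.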
